A study of Homo sapiens with 36 samples.

Results

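Distal hypoxia response elements were examined as regions of HIF peaks that lie far from promoters and hold the core sequence that HIF reads. The regions came from Cut&Run with an antibody against the V5 tag in 786-O cells. These come from a human kidney cancer of the clear cell type and lack working VHL, the protein that marks HIF-α subunits for destruction. Overlapping peaks of 15 lists from tagged lines were merged, and regions with peaks from at least 2 lists were kept, which left 25350 regions. A region was a member when its centre, the median of its peak summits, lay more than 10 kb and at most 100 kb from the nearest start site of a protein-coding transcript, and when ACGTG or GCGTG (the hypoxia response element, HRE) stood within 100 bp on either strand. There were 3877 members, 15.3% of all regions and 40.0% of the 9681 distal regions. The other 5804 distal regions had no HRE in the window, and 4468 regions within 1000 bp of a start site had one and are called promoter HRE regions.

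All lines were 786-O cells, which also make untagged HIF-2α unless it was tagged in place. The authors state that these cells have no functional HIF-1α of their own because of a truncating mutation. WT cells carried no tag. In the knock-in (KIN) line the endogenous HIF-2α carried V5 and Halo tags, and this line is 1 homozygous clone. The other 4 lines expressed a Halo- and V5-tagged protein from the L30 promoter: HIF-2α, HIF-1α, HIF-2α/1α or HIF-1α/2α. They were stable lines selected and kept in puromycin. The authors report that expression from this promoter varied from cell to cell, and protein levels were not compared here. HIF-2α/1α joins residues 1 to 365 of HIF-2α, which hold the DNA-binding and dimerization domains (DBD), to residues 364 to 826 of HIF-1α, the C-terminal disordered region (IDR). HIF-1α/2α joins residues 1 to 363 of HIF-1α to residues 366 to 870 of HIF-2α. Each line had 3 biological replicates with an IgG library behind each list. Apart from puromycin, no drug or oxygen treatment is named for these samples.

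HIF is a dimer of an oxygen-regulated α subunit, HIF-1α or HIF-2α, and the stable partner HIF-1β. Both dimers contact the same short core through their basic helix-loop-helix domains, and genes for glucose use, blood vessel growth and erythropoietin are textbook targets. In VHL-deficient kidney cancer HIF-2α is the main oncogenic subunit, and enhancers far from promoters are known to carry part of its output. AP-1 is a family of FOS and JUN dimers that bind the motif TGANTCA at many active enhancers.

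The sequences of 12 members are printed with 12 bases on each side of the HRE nearest to the centre, 5′ to 3′ on the strand of the HRE, in hg38 coordinates and with the 5-base core in capitals. The first 6 are near known HIF target genes or were among the strongest members. The next 5 stand for differences between lines described later, and the last is a member that only the lines with the HIF-1α DBD called.
TGFA (chr2:70596997-70597025, plus strand): accacagaccggACGTGcgtggtagcagg
SLC2A3 (chr12:7970814-7970842, minus strand): gcagcggccgggACGTGccgtgtggcacg
SLC2A1 (chr1:42932418-42932446, minus strand): gtgtgatggtatACGTGcataagaagccg
DDIT4 (chr10:72297504-72297532, minus strand): tcaaaggaggctACGTGagaaaagcctcg
VEGFA (chr6:43799054-43799082, plus strand): gccacgcatggcACGTGacagccaaggag
PLIN2 (chr9:19161898-19161926, plus strand): aagatctgtgctACGTGtcacacatgatc
TPM1 (chr15:62957421-62957449, plus strand): ggaagcaatgcgACGTGacagtgagcact
ADAMTS9 (chr3:64729268-64729296, plus strand): ttctgaactgggACGTGactggggagaca
MBP (chr18:77162826-77162854, minus strand): tgcccgtggcgtACGTGtgctgtctgccc
ARHGAP26 (chr5:143217319-143217347, plus strand): tggatgtgcaatACGTGcaatacctagaa
PDS5B (chr13:32830032-32830060, minus strand): gctgatgaaggtGCGTGcaaggcatgtgg
CDH2 (chr18:28150274-28150302, minus strand): cccccatttgaaACGTGacccccgtctgc
The SLC2A1, DDIT4, PLIN2, MBP and ARHGAP26 cores follow a T, so that the hexamer reads TACGTG. The TGFA, SLC2A3, TPM1 and ADAMTS9 cores follow a G, and that of VEGFA lies in the palindrome CACGTG.

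The tagged lists held 3984 to 20808 peaks. Their depth, inferred from the fold and p-value of each peak, was 0.253 to 0.536 fragments per base in the 14 tagged libraries where it could be solved. The longest list of every tagged line came from replicate 2, so each comparison was also made within a replicate number. WT cells, in which the antibody has no target, called 7, 553 and 115 members in replicates 1 to 3, or 0.181%, 14.3% and 2.97%. In all, 567 members were called in at least 1 WT library and 102 in at least 2. Distal regions without an HRE were called in WT at nearly the same shares, 0.258%, 14.3% and 3.07%. The part of these background calls in the results was not tested, but leaving out every region called in WT kept the direction and the side of the 0.05 threshold of every exact test by library that was repeated without them.

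The HRE was more frequent at distal centres than nearby. It stood within 100 bp of 40.0% of the distal centres and of 23.7% of windows of the same size placed 1000 bp to each side, an excess of 16.3 points. At promoter regions the shares were 61.3% and 31.8%, and beyond 100 kb they were 36.1% and 18.0%. The matches were not centred on the deposited summits. Over the 9681 distal regions, HRE matches per 100 regions in bins of 20 bp reached 10.1 at −100 bp, were 5.45 at the centre, and were 3.25 at 100 bp on the other side, where the far level was 3.22. AP-1 showed the same displacement, with 6.45 at −100 bp, 3.37 at the centre and a far level of 0.703.

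**Figure D1:**
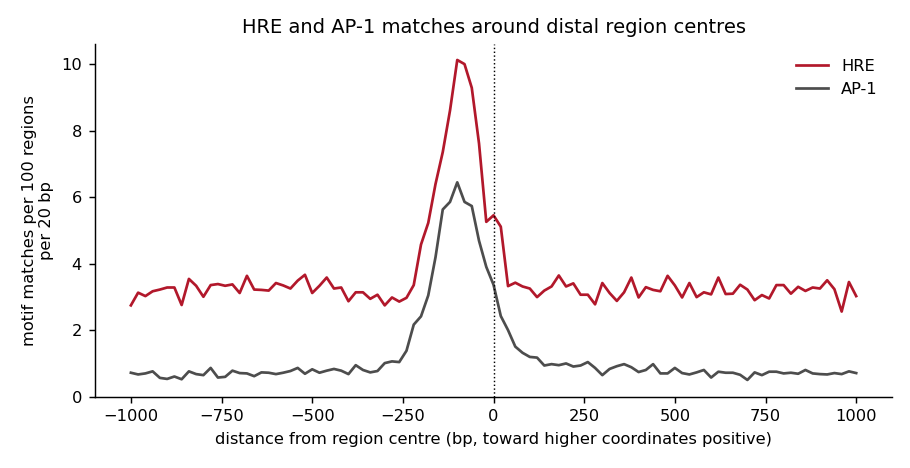
Matches to the HRE (ACGTG or GCGTG) and to AP-1 (TGANTCA) per 100 distal regions in bins of 20 bp, against the distance from the region centre, where negative values lie toward lower genome coordinates. Both curves peak at −100 bp and not at the centre.

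The displacement was present in each library. The mean HRE position lay at −86.8 to −73.8 bp from the summits of the 15 lists, and the mean AP-1 position at −83.3 to −72.4 bp. Promoter regions gave the same sign without any motif, since the median distance of their centres from the start site was −8 bp for genes on the plus strand and −129 bp for genes on the minus strand. Its cause was not tested. The window of 100 bp thus cut through the peak of the HRE curve: the 541 distal regions whose nearest HRE lay just outside its low edge were called in a mean of 7.68 lists, and the 537 members just inside it in a mean of 7.92. With centres moved by −80 bp, an alternative chosen after the displacement was seen, 49.2% of distal regions held an HRE and the excess over flanks was 25.7 points.

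Bases next to the core differed between members and flanks. TACGTG was the hexamer nearest to the centre in 16.6% of members and 7.66% of HRE-holding flank windows, and GACGTG in 17.0% and 9.36%. AACGTG made up 12.8% and 11.3%, and the palindrome CACGTG 10.5% and 9.40%. GCGTG cores made up the rest, 43.0% of members and 62.3% of flanks. ACGTG cores together thus made up 57.0% of members and 37.7% of flanks. Relative to that rise, AACGTG and CACGTG were less frequent among the ACGTG cores of members than among those of flanks. Of the members nearest to each hexamer, 17.1% with TACGTG were called in all 15 tagged libraries, 13.7% with GACGTG, 11.4% with AACGTG, 9.83% with GCGTG and 7.82% with CACGTG. Within each library, the share of members called was higher for TACGTG than for GCGTG in 15 of 15 libraries, by a mean of 9.19 points. Peak calls of the same libraries decided which regions were kept, so shares called are tested below only on regions kept by at least 2 lists that the test does not use. With regions kept by the lists of the other lines, TACGTG was higher in 14 of 15 libraries, by a mean of 9.29 points (exact sign-flip test over libraries, two-sided, p = 0.000183, and 0.000732 after Benjamini-Hochberg adjustment over 16 tests). This comparison was added after the values were seen.

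Most members had a single HRE match. Matches were counted on both strands, so each palindrome CACGTG counted as 2. There were 2658 members with 1 match in the window, 877 with 2 and 342 with 3 or more. Of these, 10.2%, 14.4% and 16.7% were called in all 15 libraries. Members holding CACGTG thus never fell in the class with 1 match. The share called was higher for members with 3 or more than for those with 1 in 12 of 15 libraries, by a mean of 4.14 points. With regions kept by the other lines it was higher in 11 of 15, by 4.45 points (exact sign-flip test, p = 0.00549, adjusted p = 0.0146), again in a comparison added later. The p again covers only the spread between libraries. The classes also differ in their hexamers, and the part of this was not tested. The sequence CACAG within 25 bases 3′ of the HRE, part of the ancillary sequence known from the erythropoietin enhancer, was found in 6.11% of members and 3.48% of flanks. On the 5′ side the shares were 6.37% and 3.55%, an excess of like size.

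AP-1 motifs were present in 978 members, 25.2%, and in 6.36% of their flanks. They were more frequent in distal regions without an HRE, at 32.8%, and least frequent in promoter HRE regions, at 4.68%. Members with and without an AP-1 motif were called in a mean of 7.71 and 7.52 lists, and 10.8% and 12.0% of them in all 15. RUNX (TGTGGT) was found in 20.2% of members and 14.7% of flanks, TEAD (GGAATG) in 16.0% and 10.1%, and ETS (GGAAGT) in 14.2% and 10.3%. The HNF1 motif GTTAAT, of a kidney transcription factor, was equally frequent in both, 6.71% each. SP/KLF boxes (GGGCGG) were found in 9.44% of members and 57.3% of promoter HRE regions. Members had a median GC content of 51.2% and a CpG ratio of observed to predicted of 0.331. At promoter HRE regions these were 67.2% and 0.857, and at distal regions without an HRE 47.8% and 0.190. The median width was 684 bp for members and 594 bp for distal regions without an HRE. Members thus differed from distal regions without an HRE in more than the motif. The part of this in the shares called and folds compared below was not tested.

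By annotation, 1863 members (48.1%) lay in introns of protein-coding genes, 1249 (32.2%) in no gene, 565 (14.6%) only in noncoding genes and 200 (5.16%) in exons of protein-coding genes. A noncoding start site was within 1000 bp of 364 members, 9.39%. The median distance to the nearest protein-coding start site was 31096 bp, with quartiles of 18121 and 53183 bp. The members were nearest to 2579 genes, and 50 genes had 5 members or more. EGFR, the epidermal growth factor receptor gene, had the most, 12 members between 13640 and 95165 bp from its start sites, of which 6 were called in all 15 libraries. FRMD4A had 11 and RPTOR, which encodes a subunit of the growth-control complex mTORC1, had 10.

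Members were called in more tagged lists than distal regions without an HRE. The mean was 7.57 lists for members, 5.73 for distal regions without an HRE and 7.67 for promoter HRE regions. Of the members, 453 (11.7%) were called in all 15 lists, where the share over all 25350 regions was 6.79%, that of distal regions without an HRE 4.00% and that of promoter HRE regions 7.95%. At the other end, 662 members (17.1%) were in exactly 2 lists. The share of distal regions that held an HRE was 30.1% among regions in 2 lists and 66.1% among those in all 15. Of the 453, 297 were called in no WT library. Calls also decided which regions were kept, so these counts are a description.

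**Figure D2:**
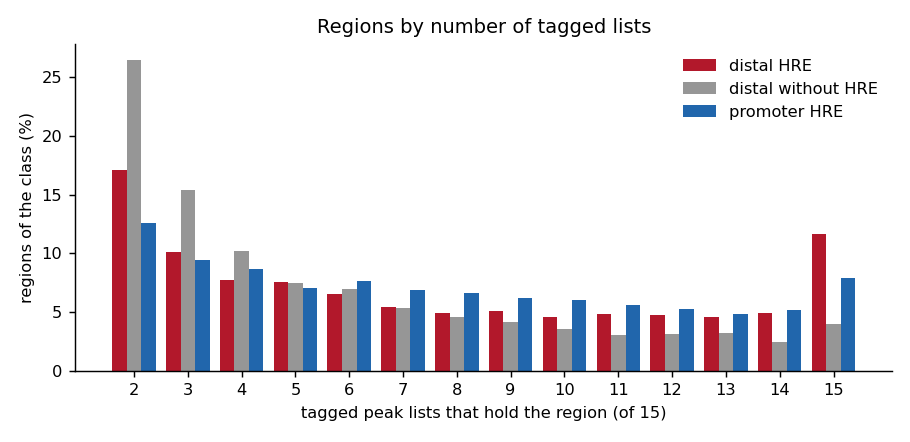
Share of each class of regions (y axis, %) by the number of tagged peak lists that hold the region (x axis, 2 to 15), for distal HRE regions, distal regions without an HRE and promoter HRE regions. Distal HRE regions have the highest bar at 15 lists, 11.7%, and regions without an HRE the highest at 2 lists, 26.5%.

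In each library, members were called more often and with stronger peaks than distal regions without an HRE. The share of members called was 56.4%, 72.0% and 61.5% in HIF-1α replicates 1 to 3, against 42.5%, 59.8% and 48.4% of regions without an HRE. It was 60.7%, 78.2% and 51.7% with HIF-2α/1α. It was 47.3%, 61.1% and 47.2% with HIF-1α/2α, 29.6%, 71.6% and 28.7% with HIF-2α, and 18.5%, 40.0% and 32.5% in KIN. The HIF-2α line spread widely, with replicate 2 far above the other 2. The gap to regions without an HRE was positive in 15 of 15 libraries and averaged 12.3 points, at 11.8, 11.7 and 13.3 points within replicate numbers 1, 2 and 3. With regions kept by the lists of the other lines it was positive in 15 of 15 and averaged 13.28 points (exact sign-flip test, p = 6.1e-05, the smallest this test can give, adjusted p = 0.000326). The median log2 fold of called peaks, where the fold is the enrichment of the peak over local background, was also higher in 15 of 15 libraries, by a mean of 0.30, and by the same 0.30 on regions kept by the other lines (exact sign-flip test, p = 6.1e-05, adjusted p = 0.000326). Libraries of 1 line are not separate lines, and both gaps were positive in each of the 5 tagged lines.

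**Figure D3:**
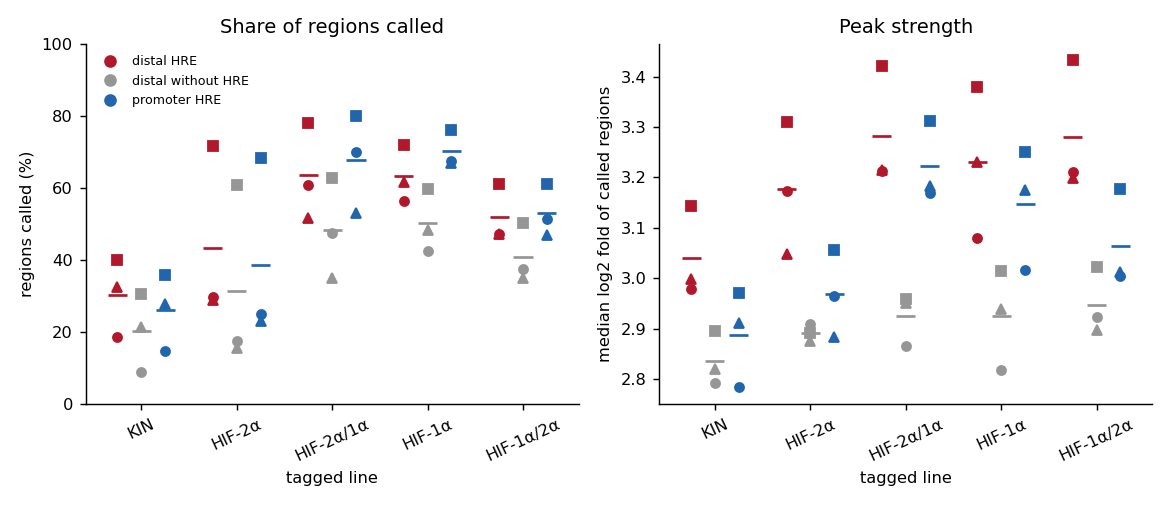
Share of regions called (left, %) and median log2 fold of the called regions (right) in each tagged library, by line, for distal HRE regions, distal regions without an HRE and promoter HRE regions. Circles, squares and triangles are replicates 1, 2 and 3 and bars are means. The distal HRE points lie above the points without an HRE of the same replicate in every line.

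Peaks were stronger at members than at promoter HRE regions, although they were not called more often. The median log2 fold was higher at members in 15 of 15 libraries, by a mean of 0.14, and by 0.16 on regions kept by the other lines (exact sign-flip test, p = 6.1e-05, adjusted p = 0.000326). The share called differed by −0.644 points on average and was higher at members in 8 of 15 libraries, and on regions kept by the other lines it differed by −0.591 points (exact sign-flip test, p = 0.672, adjusted p = 0.717). This mean changed sign, to 1.57, 0.711 and 3.74 points, with at least 3 lists, with a −log10 q of at least 5 and with lists of equal length.

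The domain-swap lines ask whether the DBD or the IDR goes with binding. The share of members called averaged 47.6% ± 17.0 (SD, n = 6) in lines carrying the HIF-2α IDR and 63.4% ± 9.87 (SD, n = 6) in lines with the HIF-1α IDR, and the ranges overlapped. The gap was −15.8 points, it was −22.9 points without HIF-2α replicate 2, and it was 2.46 points in the other direction when each list was shortened to its 3984 strongest peaks. Longer lists also bring in more regions. The domains were therefore tested on the regions kept by at least 2 KIN lists, which no exogenous line chose. KIN itself carries the DBD and the IDR of HIF-2α, so this choice of regions is not neutral between the domains. The exogenous lines called means of 78.1% to 94.1% of the members kept, which leaves little room for a gap in share. A small gap in share on these regions thus cannot decide whether the domains differ. On these 1094 members the gap was −11.3 points and missed the threshold after adjustment (exact permutation within DBD, two-sided, p = 0.045, adjusted p = 0.08). By DBD the difference was −4.15 points, with 1.35 points at equal list length, and it was −3.46 points on the members kept by KIN (exact permutation within IDR, p = 0.475, adjusted p = 0.691). Depth and list length were not equal between lines, and their part was not tested.

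The share called at members relative to promoter HRE regions differed between the IDRs over all kept regions, and the difference missed the test on regions kept by KIN alone. The share at members minus the share at promoter HRE regions was 4.74, 3.34 and 5.81 points in HIF-2α and −4.18, 0.0631 and 0.424 points in HIF-1α/2α. In lines with the HIF-1α IDR it was −9.22, −1.82 and −1.17 points in HIF-2α/1α and −11.0, −4.22 and −5.32 points in HIF-1α. The means were 1.70 ± 3.68 and −5.46 ± 3.96 points (SD, n = 6 each), a difference of 7.16 points, which was 10.4, 4.72 and 6.36 points within replicate numbers 1, 2 and 3 and 16.6 points with lists of equal length. On regions kept by at least 2 KIN lists it was 1.04 points (exact permutation within DBD, p = 0.315, adjusted p = 0.504). By DBD the difference was 4.32 points, at 5.36, 2.84 and 4.77 points within replicate numbers 1, 2 and 3. On regions kept by KIN it was 2.99 points, at the threshold of 0.05 and not under it (exact permutation, p = 0.025, adjusted p = 0.05). KIN, with the endogenous HIF-2α, had gaps of 3.82, 4.33 and 4.77 points, all above 0.

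Peak strength at members relative to promoter HRE regions separated the IDRs. The median log2 fold at members minus that at promoter HRE regions was 0.21, 0.25 and 0.17 in HIF-2α and 0.20, 0.26 and 0.19 in HIF-1α/2α, and 0.04, 0.11 and 0.03 in HIF-2α/1α and 0.06, 0.13 and 0.06 in HIF-1α. No library with the HIF-2α IDR overlapped those with the HIF-1α IDR. The difference was 0.14 by IDR (exact permutation within DBD, p = 0.005, the smallest it can give, adjusted p = 0.0121) and −0.01 by DBD (p = 0.515, adjusted p = 0.687, exact permutation). On regions kept by KIN it was 0.36 by IDR (exact permutation, p = 0.005, adjusted p = 0.0146) and −0.08 by DBD, which then passed (exact permutation, p = 0.02, adjusted p = 0.0457). Among proteins that share the HIF-2α DBD it was 0.15, and 0.13 among those sharing that of HIF-1α. These tests by IDR and DBD were added after the values per library were seen. At members alone, the line means of the median log2 fold were 3.18 and 3.28 under the HIF-2α IDR. Under the HIF-1α IDR they were 3.28 and 3.23, with the line carrying the HIF-2α DBD first in each pair. Promoter HRE regions had 2.97 and 3.06 against 3.22 and 3.15. The line means were thus apart by IDR at promoter HRE regions and overlapped at members. Against distal regions without an HRE, the log2 gap of members differed by −0.02 by IDR.

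**Figure D4:**
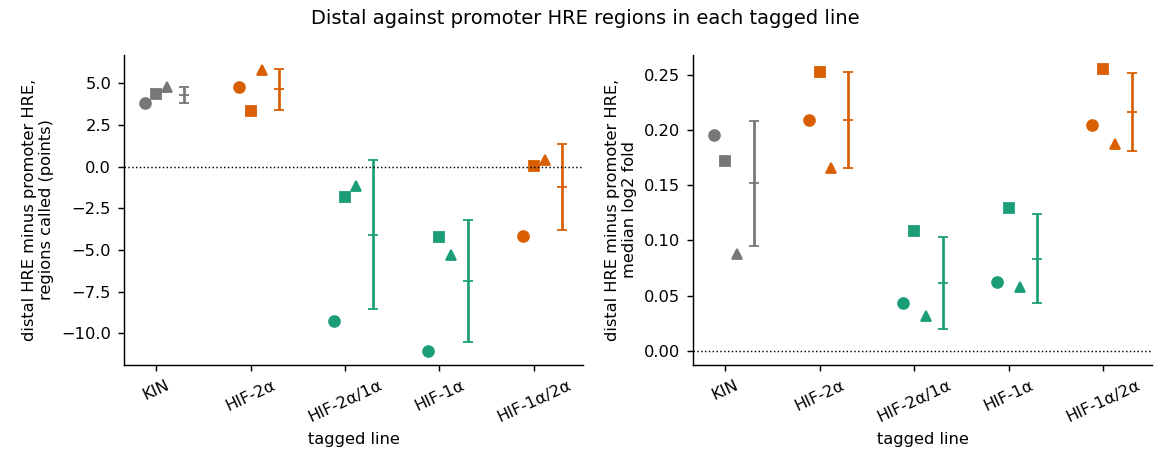
Distal HRE regions minus promoter HRE regions in each tagged library, as the share called (left, percentage points) and as the median log2 fold (right). Circles, squares and triangles are replicates 1, 2 and 3, and the bars beside them are the mean and SD (n = 3). HIF-2α IDR lines are orange, HIF-1α IDR lines green and KIN grey. In the right panel every orange point lies above every green one.

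Relative to distal regions without an HRE, neither domain passed on regions kept by KIN. The gap in share called averaged 11.5 ± 1.24 points for the HIF-2α IDR and 14.1 ± 1.73 points where the IDR came from HIF-1α (SD, n = 6 each), a difference of −2.66 points, and it was 1.60 points wider for the DBD of HIF-2α. On regions kept by at least 2 KIN lists the difference by IDR turned to 1.02 points (exact permutation within DBD, p = 0.65, adjusted p = 0.717), and by DBD it was 1.16 points (exact permutation, p = 0.585, adjusted p = 0.717). In log2 fold the gap differed by −0.02 by IDR and by less than 0.01 by DBD, neither past the test (exact permutation, p = 0.68 and p = 0.985).

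Single members were compared among the 2720 regions called in all 12 libraries of the exogenous lines, of which 660 were members, by limma on the log2 fold with each library centred on its median. By IDR, 61 of 2720 regions passed an adjusted p of 0.05, 2.24%, and 17 of 660 members, 2.58%, close to that background. Of these 17, 16 were higher where the IDR was that of HIF-2α, as were 1.69% of all regions, and 1 where it was that of HIF-1α, as were 0.551%. Over all regions the split was 46 and 15, which became 28 and 20 after quantile normalization and 2 and 2 without centring, where 0 members passed. The median difference was 0.14 over the 660 members, 0.14 over distal regions without an HRE, −0.22 over promoter HRE regions and 0.06 over all regions tested. Without centring, the median over all regions was −0.24, so these differences are relative to the typical region of a library.

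The largest IDR difference was upstream of TPM1, which encodes a tropomyosin of actin filaments. At chr15:62956622-62959006, 85147 bp from the start site and in no gene, the fold was 96.2, 90.5 and 39.6 in HIF-2α and 70.02, 156 and 44.7 in HIF-1α/2α. It was 59.1, 57.2 and 32.3 in HIF-2α/1α and 9.79, 46.3 and 30.5 in HIF-1α. The ranges overlapped, since replicate 3 was low in the HIF-2α IDR lines, and the centred log2 difference was 1.43 ± 0.35 (SE), adjusted p = 0.0117, from limma. The KIN folds of 11.2, 94.8 and 26.4 spanned both.

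A member at chr3:64728409-64729565, within the noncoding gene ADAMTS9-AS2 and 41314 bp upstream of ADAMTS9, a matrix protease gene, differed by 1.42 ± 0.34 (SE), adjusted p = 0.0117 (limma). Its fold was 29.1, 62.1 and 7.65 in HIF-2α and 29.6, 26.3 and 23.03 in HIF-1α/2α. In HIF-2α/1α and HIF-1α it was 13.6, 20.3 and 19.3 and 5.13, 8.87 and 9.69. Replicate 3 of HIF-2α, at the bottom of its group, overlapped the HIF-1α IDR lines, while the 3 HIF-1α/2α values lay above all of them. The member in the RPTOR gene differed by 1.29 ± 0.34 (SE), adjusted p = 0.0229, that near the potassium channel gene KCNA5 by 1.32 ± 0.34 (SE), adjusted p = 0.018 and that in PPP2R2C, a phosphatase subunit gene, by 1.32 ± 0.37 (SE), adjusted p = 0.032 (limma). In each of these the folds of the HIF-2α line overlapped those of HIF-2α/1α. The member higher with the HIF-1α IDR lay 30074 bp upstream of MBP, the myelin basic protein gene, where the fold was 61.1, 121 and 43.9 in HIF-1α and 60.05, 85.8 and 40.1 in HIF-2α/1α, and 14.8, 26.7 and 7.28 in HIF-2α and 18.9, 87.7 and 31.8 in HIF-1α/2α. Its difference was -1.17 ± 0.34 (SE), adjusted p = 0.0437 (limma). The groups overlapped, since replicate 2 of HIF-1α/2α lay within the range of the HIF-1α IDR lines. In the alternative fits this member missed the threshold in 12 and kept it in 7.

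These IDR calls depended on single libraries. Without HIF-2α replicate 2, 3 of the 17 members passed, and over the 12 libraries left out in turn between 3 and 19 members passed. None of the 17 changed sign under any of the fits run.

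By DBD, 82 of 2720 regions passed, 3.01%, and 24 of 660 members, 3.64%, of which 7 were higher for the DBD of HIF-2α (all regions 0.919%) and 17 for that of HIF-1α (all regions 2.1%). Over all regions the split was 25 and 57, and without centring 1 and 16, with 6 members, all higher with the HIF-1α DBD. The median difference was −0.05 over the members and 0.01 over all regions tested. Leaving out 1 library gave 14 to 31 members.

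**Figure D5:**
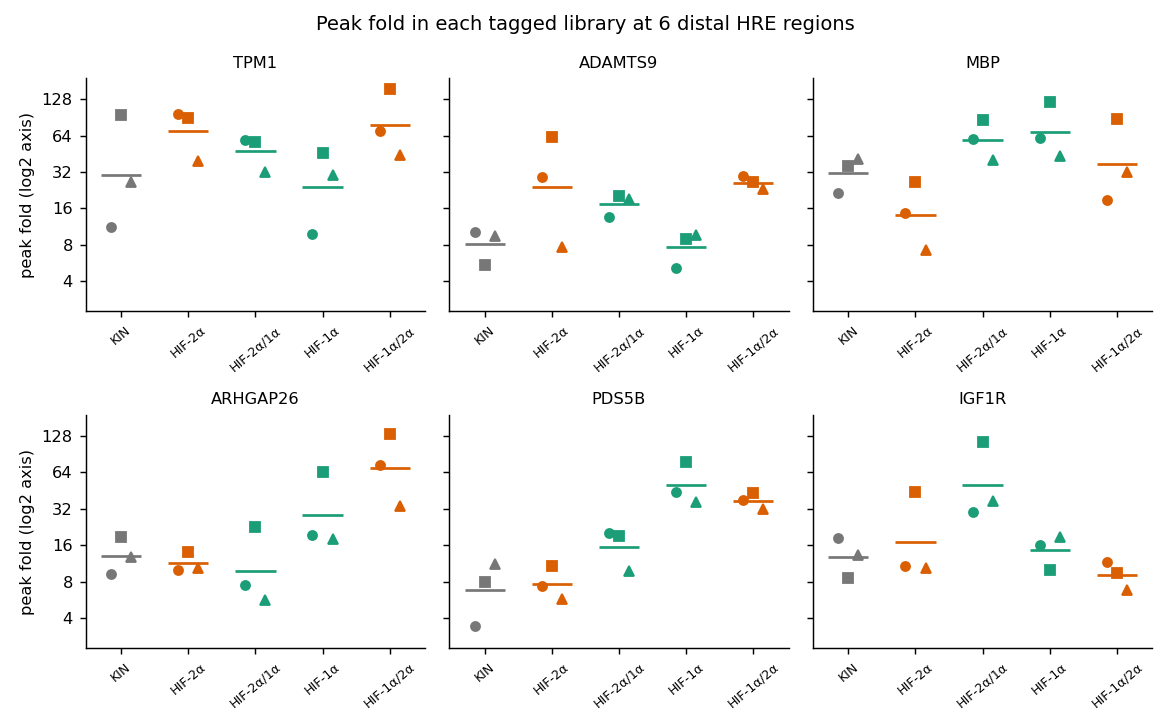
Peak fold over local background (log2 axis, not centred) in each tagged library at 6 distal HRE regions named by their nearest gene. Circles, squares and triangles are replicates 1, 2 and 3, bars are geometric means, HIF-2α IDR lines are orange, HIF-1α IDR lines green and KIN grey. TPM1 and ADAMTS9 were called higher with the HIF-2α IDR and MBP with the HIF-1α IDR, ARHGAP26 and PDS5B with the HIF-1α DBD and IGF1R with the HIF-2α DBD.

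The largest DBD difference lay in an intron of ARHGAP26, which encodes a GTPase-activating protein, at chr5:143215942-143217997. The fold was 19.5, 64.6 and 17.8 in HIF-1α and 74.03, 133 and 33.7 in HIF-1α/2α. It was 9.98, 14.2 and 10.4 in HIF-2α and 7.51, 22.6 and 5.61 in HIF-2α/1α, and 9.20, 18.8 and 12.8 in KIN. One HIF-2α/1α value overlapped the lower HIF-1α values, and the difference was -2.08 ± 0.35 (SE), adjusted p = 2.38e-05 (limma). At chr13:32829138-32830670, 71941 bp downstream of the start of the cohesin regulator gene PDS5B, the fold was 44.5, 77.8 and 36.3 in HIF-1α and 37.6, 43.4 and 31.8 in HIF-1α/2α. In HIF-2α and HIF-2α/1α it was 7.38, 10.7 and 5.72 and 20.2, 18.9 and 9.81, with no overlap, and the difference was -2.00 ± 0.34 (SE), adjusted p = 2.38e-05 (limma). A member in an intron of CDA, with the mitophagy kinase gene PINK1 as the nearest gene, followed at −1.82. Members in TCF7L2, a Wnt pathway transcription factor gene, near GTF2IRD1 and in DISC1 came next, at −1.78, −1.77 and −1.66. The members nearest to PDS5B and PINK1 were each called in 1 WT library too.

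Members higher with the HIF-2α DBD included an intronic region of IGF1R, the insulin-like growth factor 1 receptor gene. Its fold was 10.8, 44.3 and 10.4 in HIF-2α and 30.04, 115 and 37.1 in HIF-2α/1α, against 16.2, 10.03 and 18.8 and 11.5, 9.50 and 6.75 in HIF-1α and HIF-1α/2α. The groups overlapped, and the difference was 1.34 ± 0.35 (SE), adjusted p = 0.0133 (limma). Others lay near SERINC2, SERPINE3 and EXOSC2, at 1.18, 1.13 and 1.19. That of EXOSC2 was in an exon of PRDM12, and that of SERINC2 was also called in 1 WT library. In the alternative fits, the SERINC2 member missed the threshold in 7 and kept it in 12. The counts were 11 and 8 for SERPINE3, and 8 and 11 for EXOSC2.

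Few members were called in all 6 libraries of one domain and in none of the other. With the HIF-1α IDR there were 6 members, beside 0.174% of all 25350 regions, and with the HIF-2α IDR 1, beside 0.0158% of all regions, in an FBXL13 intron with LRRC17 as the nearest gene. Its folds were 4.41, 5.88 and 6.60 in HIF-2α and 11.5, 4.93 and 4.07 in HIF-1α/2α. Of the 6, the strongest was in VPS13D, a lipid transfer protein gene, with 12.8, 22.8 and 14.2 in HIF-1α and 7.51, 19.00 and 6.90 in HIF-2α/1α, and it was also called in the 3 KIN libraries. By DBD there were 4 members with the HIF-1α DBD, where 0.0671% of all regions were, and 0 with the HIF-2α DBD, where 0.0158% were. These 4 lay in CDH2, the N-cadherin gene, in RUNX3 and near SYNM and STARD4, and none was called in KIN. The CDH2 member had folds of 9.84, 30.1 and 22.6 in HIF-1α and 22.1, 38.3 and 23.6 in HIF-1α/2α.

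KIN reports HIF-2α at its own gene's expression. At least 2 KIN libraries called 1094 members, 28.2%, beside 19.9% of all regions and 15.6% of distal regions without an HRE. All 12 exogenous libraries called 588 of these 1094, 53.7%, against 35.7% of the KIN-called distal regions without an HRE. The HIF-2α line called 78.1% ± 15.3 of them, HIF-2α/1α 94.1% ± 4.16, HIF-1α 92.9% ± 2.89 and HIF-1α/2α 86.2% ± 5.01 (SD, n = 3 each), and WT libraries called 0.548%, 27.7% and 7.50%. No KIN library called 2028 members, 52.3%. The share over all regions is not given, so this count does not show whether members differ from other regions. Exogenous HIF-2α against KIN was fitted on 1815 regions, 475 of them members. Of the regions 10 passed, 0.551%, of which 4 were higher in HIF-2α, 0.22%, and of the members 1, in an intron of BACH1, which encodes a repressor of heme oxygenase. Its fold was 11.6, 19.96 and 26.4 in KIN and 88.1, 221 and 74.8 in HIF-2α, with no overlap, and the difference was 2.12 ± 0.46 (SE), adjusted p = 0.00981 (limma). The call was lost without centring and without KIN replicate 1 or 2.

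The strongest shared members, called in all 15 tagged and no WT libraries, lay near BASP1, TGFA, KCMF1, HOXB9, CFAP144, SLC2A3, JADE2 and ARG2. The TGFA member, 43030 bp upstream of the gene for transforming growth factor alpha, had folds of 46.5, 100.2 and 51.3 in KIN, 90.97, 127 and 50.1 in HIF-2α and 161, 124 and 63.7 in HIF-2α/1α. In HIF-1α it had 48.9, 43.8 and 32.6 and in HIF-1α/2α 66.2, 107 and 53.95. Every library was high, and neither domain passed the test (limma, adjusted p = 0.456 by IDR and 0.2 by DBD). The SLC2A3 member, in a gene for a glucose transporter, had 51.5, 168 and 54.2 in KIN, 56.8, 166 and 41.3 in HIF-1α/2α, 39.6, 76.00 and 42.4 in HIF-1α, 91.4, 123 and 37.7 in HIF-2α and 122, 68.8 and 80.2 in HIF-2α/1α. The ARG2 member, in an intron of the gene for mitochondrial arginase, had 33.3, 100.4 and 28.1 in KIN, 58.4, 105 and 86.2 in HIF-1α/2α, 42.6, 35.1 and 24.3 in HIF-1α, 77.2, 70.6 and 53.4 in HIF-2α and 62.9, 243 and 60.1 in HIF-2α/1α. Neither passed by domain.

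Some genes of the HIF pathway were the nearest gene of a member. Of all 19663 protein-coding genes, 2579 (13.1%) were the nearest gene of a member. Of these 2579, 381 had a member called in all 15 libraries. Lists of known genes, chosen with earlier results of these data known, had higher shares of genes with a member. For glucose uptake and glycolysis 5 of 23 genes had one: SLC2A1, SLC2A3, HK2, PFKP and PFKFB3, each with a member in all 15 libraries. In SLC2A1, the main glucose transporter gene, the fold was 9.95, 37.9 and 23.3 in KIN, 30.7, 44.98 and 29.9 in HIF-1α/2α, 35.9, 36.1 and 28.96 in HIF-1α, 29.2, 45.9 and 32.6 in HIF-2α and 46.6, 62.98 and 36.6 in HIF-2α/1α, and 1 WT library called it too. Of 16 angiogenic and vasoactive genes 8 had a member, and PDGFB had one in all 15. The best VEGFA member was called in 10 tagged libraries, with 9.21, 14.4 and 8.28 in HIF-1α and 40.6, 25.4 and 21.5 in HIF-1α/2α, in 2 libraries of HIF-2α/1α, and in 1 library each of KIN and HIF-2α, both replicate 2.

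Of 19 genes of oxygen sensing and the HIF pathway 8 had a member, and those of EGLN3, a HIF prolyl hydroxylase gene, BHLHE40 and DDIT4, an mTOR inhibitor gene, were called in all 15. The DDIT4 member had folds of 50.2, 50.2 and 45.4 in KIN, 49.5, 49.7 and 47.5 in HIF-1α/2α, 36.6, 32.1 and 45.7 in HIF-1α, 33.9, 85.7 and 38.8 in HIF-2α and 47.6, 41.1 and 51.6 in HIF-2α/1α, and neither domain passed the test (limma, adjusted p = 0.458 by IDR and 0.903 by DBD). A member upstream of HIF1A was called in 13 libraries. Of 18 growth factor and cell cycle genes 11 had a member, with members in all 15 for EGFR, IGFBP3, IGF1R, GAS6 and TGFA. CCND1, the cyclin D1 gene, had 1 member, called in 11 libraries, and PLXNA2 1, called in 2. The 3 other TGFA members were called in 5, 4 and 5 libraries. No member was nearest to HSD3B7 or PTPRN.

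For lipid, pH, iron and mitophagy genes the count was 7 of 18, with NDRG1, CA12, PLIN2, HMOX1 and SCD in all 15. The PLIN2 member, 12706 bp upstream of the lipid droplet gene, had folds of 10.3, 21.99 and 21.7 in KIN, 36.6, 38.9 and 91.3 in HIF-1α/2α, 19.3, 27.03 and 24.7 in HIF-1α, 25.6, 31.6 and 15.8 in HIF-2α and 18.1, 23.5 and 13.8 in HIF-2α/1α. Those of HIF-1α/2α were above the others, and neither domain passed the test (limma, adjusted p = 0.0753 by IDR and 0.223 by DBD). For matrix and adhesion it was 10 of 21, with COL5A1, LOXL2 and ITGA5 in all 15, and the LOXL2 member was higher with the HIF-2α IDR (limma, 1.17 ± 0.34 (SE), adjusted p = 0.0414). For kidney and renal carcinoma transcription factors it was 9 of 22, with KLF6 in all 15. For AP-1 subunits it was 5 of 9, where FOSL2 and JUN had members in all 15. For guidance and plexin genes it was 8 of 17, none of them in all 15, with NRP1, EFNB2 and EPHA2 reaching 10 libraries. Nearest genes are by distance alone, and genes with large surroundings have more room for members. Besides that of SLC2A1, the best members of DDIT4, EGLN3, PDGFB, HK2, EGFR, IGFBP3, COL5A1 and CCND1 were each called in 1 WT library. Those of NDRG1, CA12 and FOSL2 were each called in 2 WT libraries.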

How the data were processed

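Each anti-V5 library of 6 lines with 3 replicates gave 1 peak list, called by the authors with MACS2 against its matching IgG library after alignment to hg38 with Bowtie2 2.3.4.1. The deposited lists give each peak's fold, a ratio of enrichment over local background, its −log10 p and q values and its summit offset. Read counts were not used here, so a region absent from a list is not shown to be unbound. Groups and replicate numbers came from the labels. The members, gene lists, naming rule and tests were chosen with earlier results of these data known.

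Autosomal, X and Y peaks were merged at 1 bp of overlap, with GENCODE release 44 start sites of protein-coding transcripts. A region took the highest fold of its peaks in a list. HRE windows of 100 bp were read from hg38 with pysam 0.24.0, and flanks lay 1000 bp to each side. Shares and median log2 folds per library were tested by exact permutation within the other domain (400 relabellings) and by exact sign flips over 15 libraries, with Benjamini-Hochberg adjustment over 16 tests, 6 of them added after values were seen. Since calls also decided which regions were kept, each test was repeated on regions kept by at least 2 lists outside it, the KIN lists for tests between domains and the lists of the other lines for tests within libraries, an alternative added after values were seen. For shares called, the p-values given are those of this alternative in place of the planned ones. Single regions were tested with limma 3.58.1 in R 4.3.3 on median-centred log2 fold, for regions called in every library of the fit, with Benjamini-Hochberg adjustment over all regions tested. Other work used Python 3.11.15, NumPy 2.4.6, SciPy 1.17.1 and pandas 2.3.3.

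The limma step was tested on simulated data for the IDR comparison, with 200 of 2720 regions changed and the real spread between replicates (median SD 0.58 on the log2 scale). The first simulation planted changes of 0.5 and 1 and recovered 1% and 2% of them, with 3 calls in all and none false. A second simulation, with changes of 1 and 2, was added after that low recovery was seen, and it recovered 36% and 93%, with 10 false calls among 139. Recovery of a change of 1 thus depended on how many larger changes stood beside it, and most differences of that size would be missed when large ones are few.

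Regions were named by rule: the 8 strongest members in all 15 tagged and no WT libraries, up to 4 nearest genes per list, up to 6 members per fit and direction, members called 6 against 0, and members near TGFA, HSD3B7, PLXNA2, PTPRN and CCND1. A region named by this rule is not reported here. Alternatives covered the window, list number, q-value, list length, start sites, centring and each library left out.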

Additional observations from a re-analysis of the deposited data

How the results depend on the processing

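Over the alternatives, the number of distal HRE regions was 1948 with a window of 50 bp and 5934 with 200 bp, and their share of distal regions was 20.1% and 61.3%. The share was 43.0% with at least 3 lists, 42.0% with a −log10 q of at least 5, 37.3% with start sites of all genes and 49.2% with moved centres. The excess over flanks was 7.63 points (50 bp), 21.3 (200 bp), 17.9 (q-value) and 25.7 (moved centres), and AP-1 motifs were found in 12.1% and 44.6% of members within 50 and 200 bp.

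With lists of equal length, the share called by IDR was 2.46 and by DBD 1.35 points, the gap to regions without an HRE by IDR −1.75, the log2 gap 0.037 by IDR and −0.029 by DBD, and the gap to promoters 3.74. At least 3 lists gave −1.66 for the gap by IDR and 1.57 for the gap to promoters, which was 0.711 at the stricter q-value. The log2 gap by DBD was −0.0088 with a window of 50 bp and −0.573 points as a percentile rank, that by IDR was 0.0022 with moved centres, and the log2 gap to promoters by DBD was 0.00246 with 50 bp and 0.00831 with moved centres. The gap in share to promoters by IDR was 16.6 with equal lists. On regions kept by at least 2 KIN lists, an alternative added after the values were seen, the share by IDR was −11.3 points (exact p of 0.045), the gap to regions without an HRE by IDR turned to 1.02 points and its log2 form by DBD to −0.023, and the gap in share to promoters fell to 1.04 points by IDR. The causes were not tested.

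Leaving out 1 library gave −22.9 to −12.2 points for the share by IDR, the first without HIF-2α replicate 2. That first value fell under the 0.05 threshold, but on regions that the same lists helped to keep, so it is no test of the domains. The gap to regions without an HRE by DBD was 1.19 to 2.10, and the gap to promoters −1.10 to 0.0978. The log2 gap was −0.055 to 0.0056 (IDR) and −0.032 to 0.029 (DBD). Members called 6 against 0 numbered 1 to 3 (HIF-2α IDR), 6 to 18 (HIF-1α IDR), 0 to 2 (HIF-2α DBD) and 4 to 9 (HIF-1α DBD), and at equal list length 4, 1 and 2 for the first 3.

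In the fits by region, the numbers past the threshold over all regions and members were 4 and 0 (IDR), 17 and 6 (DBD) and 0 and 0 (KIN) without centring. Quantile normalization left 7 members by IDR and 2 against KIN, and fits with missing values 2 regions and 2 members against KIN. Leaving out 1 library gave 29 to 71 regions and 3 to 19 members by IDR, 53 to 90 and 14 to 31 by DBD, and 0 to 6 and 0 to 2 against KIN.

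Replicate numbers were not taken as pairs in the main tests. Residuals of same-numbered libraries correlated at 0.0283 to 0.201, with a median of 0.0744 and 8 of 18 pairs over 0.1. The median for other numbers was −0.0555, and 12 of 12 libraries correlated best with their own number. These residuals came from centred log2 folds, so they do not bear on list length or on the share called. With the replicate block, 102 regions and 29 members passed by IDR and 129 and 44 by DBD. The share called by IDR, −15.8 points, and the gap in share to promoters by DBD, 4.32 points, then reached an exact p of 0.0313. This is the smallest p that exact permutation within replicate numbers can give.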

Other observations

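Members whose nearest HRE lay on the lower-coordinate side of the centre were called more often than members with it on the other side in 15 of 15 tagged libraries, by a median of 4.62 points (range 0.170 to 8.98). This split was chosen after the displacement of the motifs from the summits was seen, and it is given as a description.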
